A study of Mus musculus with 6 samples.

Results

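The genes described here are 8 transcription factors that set regional and enterocyte identity in the gut: Gata4, Gata6, Onecut2, Pdx1, Cdx1, Cdx2, Hnf4a and Hnf4g. They were taken by symbol, and all 8 have a row among the 18159 genes of the table. Bulk RNA sequencing of mouse intestinal epithelial cells gave 3 wild-type libraries and 3 that carry a Git2-knockout label. According to the series' design text all 6 came from mice aged 12 days and were enteroids, which are epithelial organoids grown from crypts. The titles and the cell type field instead speak of intestinal epithelial cells, so whether cultured or freshly isolated cells were sequenced cannot be told from the labels. The genotype field calls the second group a Git2 knockdown where the sample titles say knockout, and no source used here says which part of Git2 was altered. Strain, sex, pooling of animals and the gut segment that was sampled are likewise not given in the labels, which name the tissue only as intestine. The comparison asks whether factors that mark position along the gut differ between the groups.

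These factors work as a positional and a maturation code. CDX2 and its relative CDX1 are homeodomain proteins that give the epithelium its intestinal character, GATA4 marks the duodenum and jejunum and is lost towards the ileum, and GATA6 is present along the whole intestine. PDX1 marks the antrum, the proximal duodenum and the pancreas, and ONECUT2 belongs to a family of cut-homeodomain factors with proximal intestinal expression. HNF4A and HNF4G are paralogous nuclear receptors of enterocytes that together drive brush border and lipid-handling genes, and each can cover in part for the other.

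Library totals ran from 18753649 to 19106581 estimated reads in the wild-type group and from 16284414 to 16837158 in the knockout-labelled group. Git2 itself fell by 0.47 on the log2 scale (edgeR's quasi-likelihood test, Benjamini-Hochberg adjusted p = 4.44e-05), and this partial reduction does not check the genotype. Of 13558 genes expressed enough to test, 57.0% passed an adjusted p of 0.05, 29.6% upward and 27.4% downward, so a call alone says little about any one gene. The upward share of the calls was 51.9%, but 75.1% on the TPM scale and 70.4% when libraries were scaled to 10 pan-epithelial genes. The number called higher, 4013, was 3666 with upper quartile scaling or with the trend on transcript length removed. It was 3182 with the GC trend removed, 3008 with both trends removed and 2945 of 14932 genes with DESeq2. Without knockout-labelled replicate 1 it was 4082, and without knockout-labelled replicate 3 it was 3447. Replicate 1 of the knockout-labelled group stood somewhat apart from its partners, with a chi-square per degree of freedom of 7.17 and 5.31 against 1.96 between those partners.

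Of the 8 factors, 6 passed the expression filter. Among them Cdx1, Gata4 and Cdx2 were lower in the knockout-labelled libraries, Hnf4g was higher, and Gata6 and Hnf4a did not pass the test. That is 4 of 6 called beside 57.0% of all genes tested, a share near the background. The sizes set some of them apart as a description: the median absolute log2 fold change of all tested genes was 0.25, against 0.89 for Hnf4g, -0.72 for Cdx1 and -0.62 for Gata4. A more negative fold change than that of Cdx1 was found in 339 genes, and a more positive one than that of Hnf4g in 651. The groups did not overlap in CPM (reads per 1000000, scaled by TMM) for 5 of the 6, all but Gata6, where the background was 62.9%.

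The order of the levels changed at 2 places. TPM values, which are scaled by transcript length and can be compared between genes, put Hnf4a first in the wild-type libraries at 411 ± 6.03 TPM (SD, n = 3). Cdx1 followed at 251 ± 11.1 and Cdx2 at 233 ± 6.26 TPM, then Gata6 at 85.5 ± 0.367, Hnf4g at 56.4 ± 2.67 and Gata4 at 18.8 ± 0.926 TPM. In the knockout-labelled libraries Cdx2 stood above Cdx1, and Hnf4g stood above Gata6. Cdx1 exceeded Cdx2 in 3 of 3 wild-type libraries and Cdx2 exceeded Cdx1 in 3 of 3 knockout-labelled ones, and the exchange of Gata6 and Hnf4g was seen in 3 of 3 libraries on each side too. No neighbours in either order had overlapping ranges, and among the 6 factors above 10 TPM the narrowest gap lay between the lowest wild-type Cdx1 value of 242 TPM and the highest Cdx2 value of 239 TPM.

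**Figure D1:**
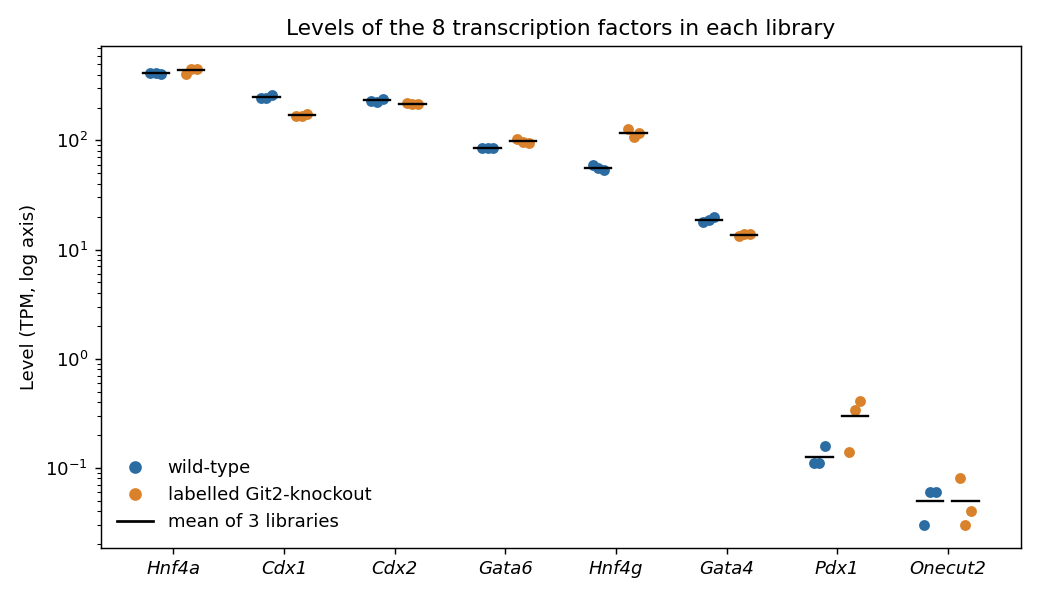
Level of each of the 8 factors in TPM on a log axis, 1 point per library, blue for wild-type and orange for labelled Git2-knockout, with a dash at the mean of 3 libraries. Hnf4g lies higher and Cdx1 and Gata4 lie lower in the orange points, and Pdx1 and Onecut2 stay under 0.5 TPM in every library.

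Gata4, the zinc finger factor of the proximal small intestine, was the lowest of the 6 tested factors and fell. Its wild-type values were 29.4, 31.1 and 32.9 CPM and its knockout-labelled values 20.5, 19.98 and 20.4 CPM. The 2 groups were far apart compared with their spread, and the 3 knockout-labelled values were nearly equal. The log2 fold change was -0.62 (SE 0.06, edgeR, Benjamini-Hochberg adjusted p = 7.99e-07), so the level was 65.2% of wild-type (95% interval 59.2% to 71.7%). In TPM the means were 18.8 ± 0.926 and 13.7 ± 0.199 (SD, n = 3 each). By mean TPM, Gata4 ranked 6542nd of all genes in the wild-type group and 7975th in the other.

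Gata6, the family member found along the whole intestine and also in smooth muscle and endothelium, was more abundant than Gata4 in each library. The wild-type values were 132, 132 and 133 CPM, and the knockout-labelled values were 147, 131 and 130 CPM. The groups overlapped, with replicate 1 of the knockout-labelled group the highest of all. The log2 fold change was 0.04 (SE 0.05, edgeR, Benjamini-Hochberg adjusted p = 0.540), and the interval of the level ran from 95.5% to 110.3% of wild-type. On other scales Gata6 was called higher: by 0.20 on the log2(TPM + 1) scale (limma-trend, adjusted p = 0.00265), where the median of all genes lay at 0.14 and 42.1% of them were called higher, and by 0.25 with the GC trend across genes removed (edgeR, adjusted p = 6.65e-04). Without replicate 1 of the knockout-labelled group it lay at -0.05.

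Since both GATA genes were read in the same library, their ratio does not move with library scaling. Gata4 made up 17.2%, 18.0% and 18.8% of the summed Gata4 and Gata6 TPM in wild-type libraries and 11.5%, 12.4% and 12.7% in the others. The highest knockout-labelled share was below the lowest wild-type share. The log2 ratio of Gata4 to Gata6 was lower by a difference of -0.66 (exact permutation test, two-sided, p = 0.1). With 3 libraries against 3 no such test can give a p under 0.1. Set against Cdx2, Gata4 gave a ratio of 0.0806 ± 0.0032 for wild-type and 0.0628 ± 0.0013 for the knockout label (SD, n = 3 each), again with no overlap.

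Pdx1 and Onecut2 were close to undetected. Pdx1 had 2 to 6 estimated reads per library, 7 in all wild-type libraries (exact Poisson 95% interval 2.81 to 14.4) and 13 in the knockout-labelled ones (6.92 to 22.2). Onecut2 had 2 to 7.98 reads per library, with sums of 8 (3.45 to 15.8) and 14 (7.65 to 23.5). Per read sequenced, the ratio of knockout-labelled to wild-type was 2.11 for Pdx1 (95% counting interval 0.784 to 6.26) and 1.99 for Onecut2 (0.780 to 5.48). Intervals of this kind cover counting error only, and both hold a ratio of 1, so a difference was not detectable at this depth. Pdx1 and Cdx2 are adjacent coding genes on chromosome 5, yet Pdx1 stayed between 0.11 and 0.41 TPM while Cdx2 lay above 216 TPM in the same libraries.

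Genes of the organs next to the small intestine were present at very different levels. In a list of 12 stomach genes, 1 was expressed enough to test, the mucin gene Muc6. It averaged 1.85 ± 0.0717 CPM for wild-type and 2.32 ± 0.336 CPM for the knockout label (SD, n = 3 each). In TPM its means were 0.3 and 0.423, and it stayed under 1 TPM in each library. Muc6 did not pass the test (edgeR, Benjamini-Hochberg adjusted p = 0.159). The gastric trefoil gene Tff2, too low to test, was at 1.66 and 0.343 TPM on average, from 7, 8 and 9 reads against 2, 1 and 1. Of 10 pancreatic genes only the chymotrypsinogen gene Ctrb1 was tested, and it fell by 0.90 on the log2 scale (edgeR, Benjamini-Hochberg adjusted p = 6.62e-05), with means of 11.3 and 6.73 TPM. In a list of 11 colon genes, 5 were tested and 1 rose and 1 fell, beside 29.6% and 27.4% of all genes tested. The colonic carbonic anhydrase gene Car1 was at 0.317 TPM on average in wild-type, from 3, 4 and 3 reads, and listed at 0 in the other 3 libraries. The rest of the colon list was uneven. Fxyd4, Hoxd13 and Car4 stayed under 1 TPM in each library, and Aqp8 was at 2.37 and 2.09 TPM on average. Mettl7b, at 377 and 276 TPM, fell by 0.61. The chloride exchanger gene Slc26a3 was at 65.3 and 75.4 TPM (log2 fold change of CPM -0.01).

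Cdx1 fell more than Cdx2. Wild-type Cdx1 values were 202, 208 and 223 CPM, and the knockout-labelled values were 129, 124 and 130 CPM. The lowest wild-type value was above the highest of the other group by a wide margin. The log2 fold change was -0.72 (SE 0.05, edgeR, Benjamini-Hochberg adjusted p = 4.11e-09), a level of 60.5% of wild-type (95% interval 56.5% to 64.8%). After removal of the trends of fold change on transcript length and on GC content, it was -0.40 (edgeR, adjusted p = 2.50e-09). The transcript had a GC content of 62.1%, the highest among the 6 tested factors.

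Cdx2, the factor most closely tied to intestinal identity, was at 238, 235 and 250 CPM in wild-type libraries. In the knockout-labelled libraries it was at 209, 196 and 200 CPM. The groups did not overlap, and the gap between them was small. The log2 fold change was -0.26 (SE 0.04, edgeR, Benjamini-Hochberg adjusted p = 8.07e-05), a level of 83.6% of wild-type. This call was lost when the GC trend was removed, at -0.07 (adjusted p = 0.168), or when transcript length was taken out as well, at -0.03 (adjusted p = 0.449). In TPM the means were 233 ± 6.26 and 218 ± 1.53 (SD, n = 3 each).

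The balance of the CDX pair moved with these values. Cdx1 made up 51.1%, 52.1% and 52.4% of the summed CDX TPM in wild-type libraries and 43.2%, 43.8% and 44.5% in the knockout-labelled libraries. Cdx1 thus held the larger part of the sum in each wild-type library and the smaller part in each of the others. The log2 ratio of Cdx1 to Cdx2 differed by -0.46 (exact permutation test, two-sided, p = 0.1, the smallest possible). The summed level of the pair was 484 ± 16.6 TPM in wild-type and 388 ± 4.23 TPM in the other group (SD, n = 3 each).

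**Figure D2:**
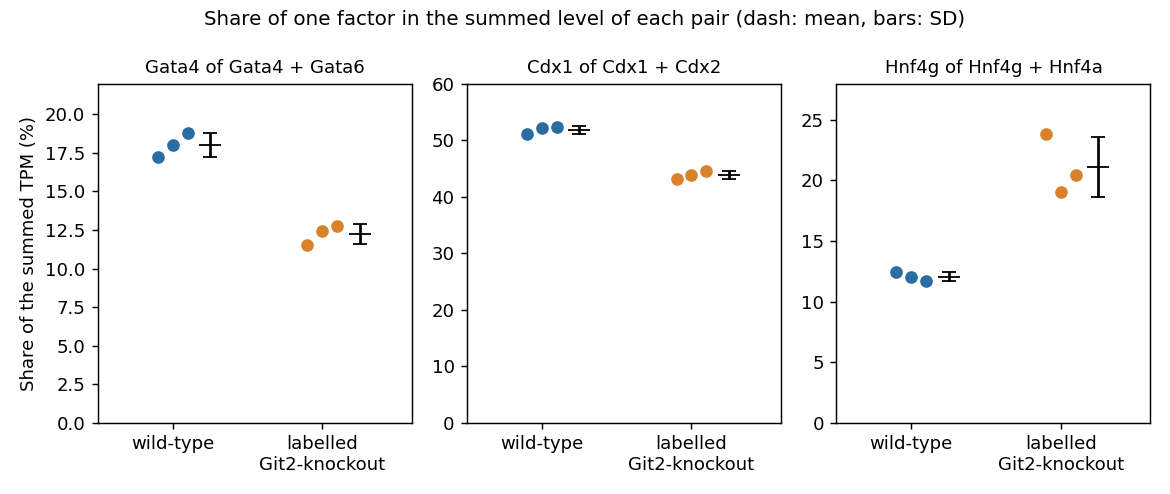
Share of Gata4, Cdx1 and Hnf4g in the summed TPM of its pair, in percent, 1 point per library, with the mean as a dash and the SD as bars. The Gata4 and Cdx1 shares are lower and the Hnf4g share is higher in all 3 knockout-labelled libraries, with no overlap between groups.

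Hnf4a, the most abundant of the 8, changed little. Wild-type libraries gave 876, 879 and 865 CPM, and knockout-labelled libraries gave 794, 846 and 854 CPM. The ranges did not overlap, though they nearly met. The log2 fold change was -0.07 (SE 0.04, edgeR, Benjamini-Hochberg adjusted p = 0.123), a level of 95.2% of wild-type (95% interval 90.1% to 100.7%). The sign depended on the scale: it was 0.09 on log2(TPM + 1) (limma-trend, adjusted p = 0.105), 0.09 with the GC trend removed (edgeR, adjusted p = 0.0526), and -0.21 with the length trend removed, where it was called lower (adjusted p = 1.63e-06). An annotated antisense gene, Hnf4aos, overlaps Hnf4a on the opposite strand, and no source used here gives the strand setting of the counting, so reads of the pair cannot be told apart.

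Hnf4g, the paralogue of Hnf4a, rose. Wild-type libraries held 116, 112 and 107 CPM and knockout-labelled libraries 232, 185 and 204 CPM. The lowest knockout-labelled value was well above the highest wild-type value, and replicate 1, the library that stood apart, was the highest. The log2 fold change was 0.89 (SE 0.07, edgeR, Benjamini-Hochberg adjusted p = 1.48e-06), a level of 186% of wild-type (95% interval 166% to 207%). Without replicate 1 of the knockout-labelled group it was 0.78. Removing the GC trend lowered it to 0.57 (edgeR, adjusted p = 3.46e-05), and removing the length trend as well lowered it to 0.54 (adjusted p = 0.00573). With 42.4% GC, this transcript had the lowest GC content of the 6 tested factors. An annotated pseudogene overlaps Hnf4g on the same strand, and no source used here says how such reads were divided.

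Within the HNF4 pair the share of Hnf4g went from 12.4%, 12.0% and 11.7% of the summed TPM in wild-type to 23.8%, 19.04% and 20.4% in the knockout-labelled libraries. Each knockout-labelled share was above each wild-type share. Their log2 ratio differed by 0.96 (exact permutation test, two-sided, p = 0.1, the smallest possible). With the GC trend removed from both fold changes the difference was 0.48, and with the length trend removed as well it was 0.56. Hnf4a remained the more abundant paralogue in all 6 libraries, with mean ratios of Hnf4g to Hnf4a of 0.137 ± 0.0046 and 0.268 ± 0.0401 (SD, n = 3 each). Summed, the pair came to 467 ± 8.63 TPM in wild-type and 555 ± 17.8 TPM in the other group. By mean TPM, Hnf4g moved from rank 3069 to rank 1609 among all genes.

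**Figure D3:**
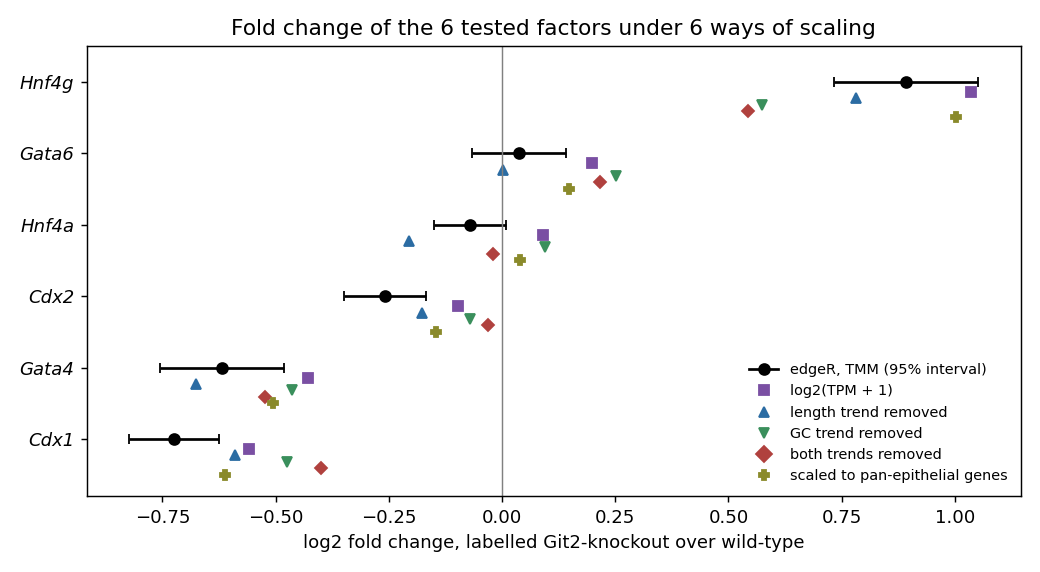
Log2 fold change (labelled Git2-knockout over wild-type) of the 6 tested factors by edgeR with TMM scaling, black points with 95% intervals, and under 5 other scalings, coloured symbols. Hnf4g stays right of 0 and Gata4 and Cdx1 stay left of 0 throughout, while Hnf4a lies on both sides and Cdx2 comes close to 0 without the GC trend.

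A test against a change of at least 1.5-fold, chosen after seeing the data, was passed by Cdx1 (edgeR's glmTreat, Benjamini-Hochberg adjusted p = 0.0244) and Hnf4g (adjusted p = 0.00517). Over all genes 4.46% passed this test, 3.28% upward and 1.18% downward. Gata4, at 65.2% of wild-type, did not pass it (adjusted p = 1).

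The likeness of patterns across the 6 libraries was measured as the root mean square difference of log2 CPM after centring each gene, among the other tested factors here and the tested members of a list of other gut transcription factors (39 candidates for each gene). Cdx1 and Gata4 were nearest to each other, at 0.06. Cdx2 lay nearest to the bile acid receptor gene Nr1h4 (0.02), Hnf4a to the retinoid receptor gene Rxra (0.02) and Gata6 to Tbx3 (0.06). Hnf4g had no close neighbour, the nearest being Prdm1 at 0.22. These distances mostly follow the difference between the 2 groups, which all candidates share.

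The list of other gut transcription factors was fixed with 39 names, of which 34 were tested. In it 11 rose, 10 fell and 13 did not pass, close to the 29.6% of all genes tested that rose and the 27.4% that fell, with a median log2 fold change of -0.03 beside 0.02 for all genes tested. The list median turned positive on 6 other scalings or filters, up to 0.13 on log2(TPM + 1), where the median of all genes tested was 0.14. The largest rise was in Prdm1, the BLIMP-1 repressor of the suckling epithelium (0.51), and other rises included the forkhead factor Foxa1 (0.37), the nuclear receptor Nr5a2 (0.33) and Maf (0.33). The larger falls were in Foxa3 (-0.69), the sugar-responsive factor Mlxipl (-0.44), the xenobiotic receptor Nr1i2 (-0.43), the epithelial ETS factor Elf3 (-0.39) and Zfpm1 (-0.38), a cofactor of GATA proteins. The sizes of these fold changes were all below those of Hnf4g and Cdx1. Of the most abundant, Creb3l3 (-0.27) and Nr1h4 (-0.26) fell, Klf4 (0.25) rose, and the crypt factor Klf5 was at 202 and 223 TPM (log2 fold change of CPM -0.02, edgeR adjusted p = 0.758). Gata5, the remaining intestinal GATA gene, fell by 0.22 in CPM and was at 42.6 and 42.3 TPM.

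Genes that mark the 2 ends of the small intestine gave different counts. Of 12 proximal genes 10 fell and 1 rose, with a median log2 fold change of -0.70, beside 27.4% of all genes falling. The retinol-binding protein gene Rbp2 went from 565 ± 5.44 to 254 ± 13.5 CPM (SD, n = 3 each), and lactase (Lct, -0.59), Apoa4 (-0.59) and Cyp3a25 (-1.12) fell with Gata4. The iron exporter gene Slc40a1 was the single rise (0.11), a call lost on several other settings. Of 13 distal genes 6 fell and 5 rose, with a median of -0.21, beside 27.4% of all genes falling and 29.6% rising. The ileal bile acid genes Fabp6 (-2.43), Fgf15 (-0.91) and Slc51a (-0.68) fell, as did Clec2h (-0.45) and the vitamin B12 receptor subunit gene Amn (-0.21), while neurotensin (Nts, 1.16) and the ileal bile acid uptake transporter gene Slc10a2 (0.37) rose. Whether the 2 lists differ was not tested.

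Genes known to depend on the HNF4 factors mostly fell, although Hnf4g rose. Of 24 such genes 18 fell and 4 rose, with a median of -0.26, where 27.4% of all genes tested fell and 29.6% rose. On the log2(TPM + 1) scale 11 fell and 5 rose, with a median of -0.10. On that scale 1894 of 13558 genes fell and 5712 rose, with a median of 0.14 for all genes tested. Apoa1 (-0.79), Apoc3 (-1.12), the fatty acid binding protein gene Fabp1 (-2.16) and the brush border cadherin gene Cdhr5 (-0.30) fell. The chylomicron scaffold gene Apob (0.42), Eps8 (0.21), Slc6a19 (0.17) and Mep1a (0.13) rose. Of 12 genes known to depend on CDX2, which include Cdx1, 6 fell and 2 rose, beside 27.4% of all genes tested falling and 29.6% rising. The number of calls in either direction was near the background of 57.0%. The list median was -0.13 beside 0.02 for all genes tested. On log2(TPM + 1) it was 0.03 beside 0.14 for all genes tested. The intestinal cadherin gene Cdh17 was at 1319 ± 25.03 and 1299 ± 55.4 CPM, sucrase-isomaltase (Sis) rose by 0.92, and Gpa33 fell by 0.27. Fabp1 and Apoa4 stand in both the proximal and the HNF4 list, and Lct stands in both the proximal and the CDX2 list.

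**Figure D4:**
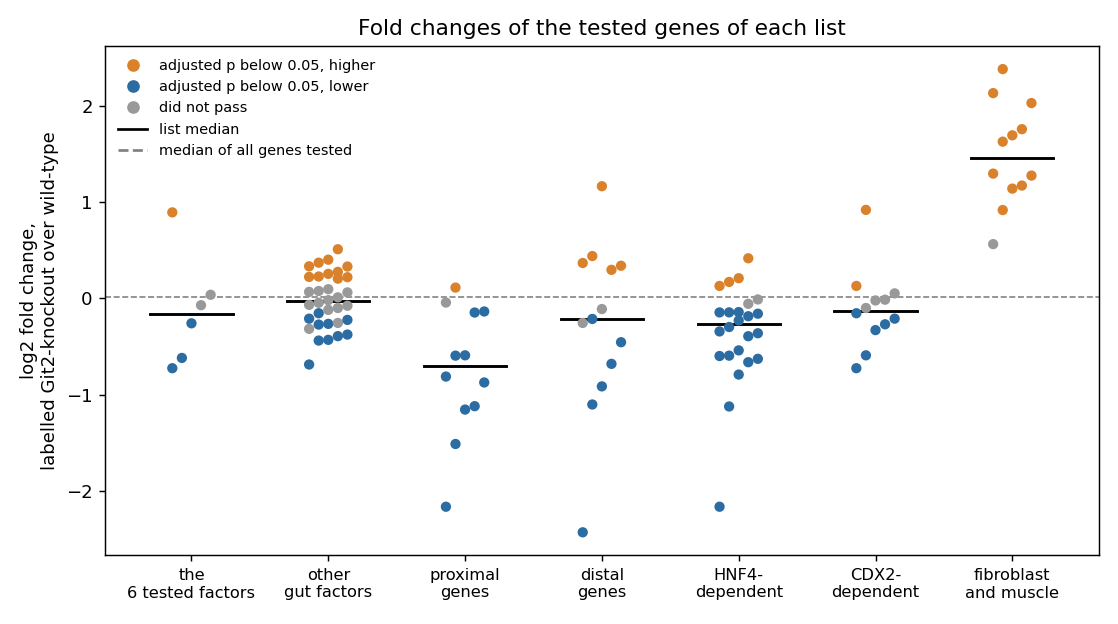
Log2 fold change of each tested gene, grouped by list, coloured by whether it passed an adjusted p of 0.05, with the list median as a black bar and the median of all tested genes as a dashed line. Among the lists drawn, the proximal one has the lowest median, -0.70, the distal and HNF4-dependent lists spread on both sides of 0, and the fibroblast and muscle list lies above 0.

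Markers of other cell types were detected, although the labels name only epithelial cells or enteroids. Whether they changed together with the 8 factors was not tested. Beside the counts below, 29.6% of all genes tested rose and 27.4% fell. Of 12 tested fibroblast and smooth muscle genes 11 rose and 0 fell, and the list summed to 22.9 to 24.4 TPM in wild-type and 78.1 to 85.5 TPM in the other group, with Sparc at 10.7 and 37.0 TPM and Col3a1 at 2.61 and 11.9 TPM, and with Lum and Foxl1 under 1 TPM throughout. All 9 endothelial genes rose, with sums of 16.5 to 17.1 TPM in wild-type and 38.8 to 43.8 TPM in the other group, led by Plvap and Pecam1. Of 5 tested B cell genes 5 fell, with sums over the list of 19.4 to 20.6 TPM and 7.85 to 9.54 TPM. Of 5 tested erythroid genes 4 rose, with sums of 83.2 to 87.4 TPM and 302 to 329 TPM and with the globin gene Hbb-bs at 33.2 and 139 TPM, and of 8 macrophage genes 2 rose and 1 fell, with sums of 163 to 166 TPM and 133 to 136 TPM. Among 5 mesothelial genes Msln alone was tested and rose (0.77), with Upk3b, Wt1, Upk1b and Lrrn4 under 1 TPM. T cell genes were tested for 2 of 6 (1 fell), and neuron and glia genes for 3 of 6 with 0 called. The 10 pan-epithelial genes summed to 10849.8 to 11239 TPM in wild-type and 10799.5 to 10864 TPM in the other group, 6 lower and 1 higher, with a median log2 fold change of -0.15.

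In such bulk libraries, fewer cells of a type and less RNA per cell cannot be told apart. The part of the other cell types in the values of the 8 factors was not tested. Scaling each library to its pan-epithelial genes cannot test it, as that multiplies all genes of a library by the same factor. On that scale the log2 fold changes were -0.51 for Gata4, -0.61 for Cdx1, -0.15 for Cdx2 and 1.00 for Hnf4g. All 4 passed on this scale as well (edgeR, Benjamini-Hochberg adjusted p = 5.67e-06, 2.96e-08, 0.00801 and 2.54e-07). Gata6 was then called higher at 0.15 (adjusted p = 0.0205), and Hnf4a lay at 0.04 (adjusted p = 0.418). With this scaling the median of all genes tested was 0.13, near the value of Gata6, and 5398 of 13558 genes were called higher.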

How the data were processed

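Estimated read counts, TPM and FPKM were deposited for each of 6 libraries, per the file headers. HISAT, Bowtie2, RSEM and GRCm39 stand in the submitters' processing notes; no source used here gives their versions, the annotation or the strand setting. In each library 58.9% to 69.2% of the deposited counts were fractional, so the authors' values were handled as estimated counts. The deposited TPM values sum to 1000000 per library, and the deposited FPKM values served for ratios and transcript length. The authors' group averages were not used.

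Counts were rounded, filtered with filterByExpr and TMM-scaled, and the groups were tested against each other in edgeR 4.0.16 (robust quasi-likelihood, two-sided, R 4.3.3) with Benjamini-Hochberg adjustment over 13558 genes. Standard errors are the log2 fold change over the square root of F. The labels do not tie the libraries to separate animals or cultures: each p-value therefore reflects just the spread among these 6 samples, possibly technical. Within-library ratios were compared by exact permutation. Alternatives were DESeq2 1.42.0, limma 3.58.1 (voom, and trend on log2(TPM + 1)), other scalings and filters, a replicate block, loess removal (span 0.5) of trends on transcript length (from counts and FPKM, 93.1% of tested genes) and GC (GENCODE transcripts of GRCm38, 97.9%), leaving out each library, and, chosen after seeing the data, a test against 1.5-fold. Of these steps, only the edgeR, DESeq2 and voom fits and the length trend removal were tried on simulated counts. The simulated counts held far fewer changed genes than were called here. Overlapping and adjacent genes were read from GENCODE for GRCm38 by name only.

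The members and gene lists were chosen with earlier results of these data known. Named genes are the 8 factors with, per list, those called with the smallest p or largest change and those of highest TPM. Genes with no row in the table were not analysed here; some genes picked by this rule are left unreported.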

Additional observations from a re-analysis of the deposited data

How the results depend on the processing

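Across the other settings, the 1.5-fold test aside, Gata4 lay between -0.67 and -0.43, Cdx1 between -0.75 and -0.40 and Hnf4g between 0.54 and 1.04, each past the threshold in all of them. Leaving out 1 library at a time gave -0.66 to -0.58 for Gata4, -0.76 to -0.68 for Cdx1, -0.31 to -0.23 for Cdx2, 0.78 to 0.96 for Hnf4g, -0.11 to -0.06 for Hnf4a and -0.0469 to 0.0549 for Gata6, negative only without knockout-labelled replicate 1. The within-library ratios kept their direction without each library in turn. With the length trend, the GC trend or both removed, added after seeing the data, Gata4 to Gata6 was -0.74 to -0.68, Gata4 to Cdx2 -0.50 to -0.39, Cdx1 to Cdx2 -0.41 to -0.37 and Hnf4g to Hnf4a 0.48 to 0.99, while Hnf4a to Cdx2, 0.19, was -0.0287 with the length trend removed. Hnf4a was called lower with upper quartile scaling (-0.10), DESeq2 (-0.0933) and the length trend removed (-0.21), and lay above 0 when scaled to pan-epithelial genes (0.0408), on log2(TPM + 1) (0.0906) and with the GC trend removed (0.0940). Gata6 was called higher when scaled to pan-epithelial genes (0.15), on log2(TPM + 1) (0.20), with the GC trend removed (0.25) and with both trends removed (0.22), so 2 factors in place of 1 were higher on those 4. There the median of all genes tested was 0.13, 0.14, 0.0053 and 0.0064 in turn. Cdx2 lost its call with the GC trend removed (-0.0697) and with both trends removed (-0.0302). The causes were not tested. Against a 1.5-fold change, 1 factor in place of 3 was called lower: Gata4 (-0.62) and Cdx2 (-0.26) did not pass, and 605 genes passed in place of 7725.

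The median of the other gut factors, -0.03, was 0.0033 with library totals, 0.0792 scaled to pan-epithelial genes, 0.0187 with a filter of 5 CPM in 3 libraries, 0.13 on log2(TPM + 1), 0.0597 with the GC trend removed and 0.0224 with both removed, and 7 in place of 11 of them rose with the length trend removed. In that order, the median of all genes tested was 0.0510, 0.13, -0.0018, 0.14, 0.0053 and 0.0064. The CDX2-dependent median, -0.13, was 0.0266 on log2(TPM + 1), where 5 in place of 2 rose, and 1 rose with the GC trend or both trends removed and without knockout-labelled replicate 3. The HNF4-dependent list had 11 in place of 18 falls on log2(TPM + 1) and 2 in place of 4 rises with the GC trend or both removed. Of distal genes 3 in place of 5 rose with DESeq2 or the GC trend removed. The proximal rise was lost (0 in place of 1) with upper quartile scaling, DESeq2, each trend removal and without wild-type replicate 2 or 3 or knockout-labelled replicate 1 or 3. Calls over all genes moved alike, save without knockout-labelled replicate 1.

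With the replicate number as a block, 3863 genes rose and 3578 fell in place of 4013 and 3712, and Gata4 (-0.62), Cdx1 (-0.72), Cdx2 (-0.26) and Hnf4g (0.89) kept their calls. Deviations of same-numbered libraries from group means correlated at 0.04, -0.0011 and 0.05 across genes, and not every library correlated best with its own number. With 3 per group, this cannot settle pairing. At this depth Pdx1 and Onecut2 cannot be compared, so a ratio of Gata4 to Onecut2 was not computed.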

Other observations

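Genes of the change from suckling to adult epithelium, named after their values were seen, moved in different directions. Sucrase-isomaltase (Sis), whose level climbs at weaning, rose from 12.8 ± 0.229 to 24.1 ± 1.88 CPM (SD, n = 3 each; log2 fold change 0.92, edgeR, Benjamini-Hochberg adjusted p = 8.59e-08). Trehalase (Treh), which also climbs at weaning, fell by 0.63 on the log2 scale (edgeR, adjusted p = 0.00389), and lactase, which declines then, fell by 0.59.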
